A study of Mus musculus with 2 samples.

Results

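Cells carrying Ccl8 and Mrc1 were examined among viable CD45+ (immune) cells sorted from tumours of MC38, a mouse colon carcinoma line, grown in the skin of C57BL/6J mice. There was 1 Control library, from tumours injected with a control, and 1 aPD1 library, from tumours injected with an antibody against the T-cell checkpoint receptor PD-1 at a dose of 200 µg daily for each mouse. Tumours had grown for 7 days when treatment began and were collected on day 10, and all mice carried tumour cells at 4 intradermal sites. The labels do not say how many mice were pooled for either library. Each difference is therefore between 1 library and 1 library, with no replicate check and no test. A member was a barcode with at least 1000 UMIs (counted RNA molecules) and at most 10% mitochondrial UMIs, at least 2 UMIs of Ccl8 and Mrc1 together, at least 3 of Csf1r, Lyz2 and Cd68 together, none of the T-cell receptor genes Cd3d, Cd3e and Cd3g, and fewer than 2 of the hypoxia genes Hilpda, Ero1l, Egln3 and Ndrg1. This rule found 75 of 4495 cells, 58 of 1174 in Control and 17 of 3321 in aPD1. Because the members were selected on measured Ccl8 and Mrc1, the levels of these genes in them are a description.

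Mrc1 encodes the mannose receptor, a scavenger receptor used as a marker of alternatively activated and tissue-resident macrophages. Ccl8 encodes a chemokine of the monocyte-attracting family, which signals through CC chemokine receptors, and lies in a cluster of such genes. C1qa, C1qb and C1qc encode the first component of complement, which mature macrophages make and monocytes largely do not. The members were set beside comparison macrophages, cells that passed the same gates with fewer than 2 Ccl8 and Mrc1 UMIs and at least 10 UMIs of the C1q genes, of which there were 51 in Control and 94 in aPD1.

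The libraries held 5203415 and 13717817 UMIs. Members had a median of 5224 UMIs in Control (1048 to 14031) and 5427 in aPD1 (1696 to 13492), and together held 343306 and 103218 UMIs. Comparison macrophages had medians of 5035 and 5762.5 UMIs. No barcode was a member in both libraries, and 4 cell barcodes in all occurred in both. Intervals are 95% intervals and cover counting error only. They take neither differences between animals nor the uneven spread of a gene over cells into account.

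The label was borne out for part of the cells only. Among Control members, 14 carried both Ccl8 and Mrc1, 41 carried Mrc1 without Ccl8 and 3 carried Ccl8 without Mrc1. In aPD1 the numbers were 3, 13 and 1. The C1q genes divided the members too. In Control 34 of 58 members (58.6%) reached the 10 C1q UMIs required of the comparison macrophages, and 16 had none. In aPD1 10 of 17 (58.8%) reached it and 4 had none. Members with at least 10 C1q UMIs are called C1q-high below and the others C1q-low. This division of raw UMIs depends on depth, and the C1q-low members had lower medians, 4829.5 against 6546.5 UMIs in Control and 3287 against 7685 in aPD1.

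Some macrophage genes outside the rule differed between the kinds, and others were close. Adgre1, which encodes the macrophage surface protein F4/80, was at 164 CPM (UMIs per 1000000 UMIs of the pooled cells) in C1q-high and 152 CPM in C1q-low Control members. Fcgr1, the high-affinity Fc receptor, was at 342 and 241 CPM, though 1 UMI was found in the 7 C1q-low aPD1 members. Mertk, the receptor for dying cells, was at 51.9 CPM in C1q-high and had no UMI in C1q-low members. Apoe, which encodes a lipid carrier, was at 11116 and 2941 CPM. Of 12 dendritic cell markers, 7 were at 0 in Control members and 8 in aPD1 members, among them Zbtb46, Ccr7, Xcr1 and Clec9a. Batf3, Itgax, Flt3 and Dpp4 gave 30, 14, 4 and 3 UMIs in Control members and 9, 4, 1 and 0 in aPD1 members. Cd209a, a lectin of dendritic cells and of monocyte-derived cells, gave 71 and 15 UMIs, all in C1q-low members. The dendritic markers summed to 355 CPM in Control and 281 CPM in aPD1 members, and occurred in 33 of 58 and 10 of 17 members. The comparison macrophages were at 211 and 75.8 CPM. Cd209a gave 71 of 122 and 15 of 29 of these member UMIs, against 1 of 60 and 0 of 44 in comparison macrophages. Without Cd209a, the sum in Control members was not above that of the comparison macrophages, while in aPD1 it was. No new name is given to the C1q-low members, which are described by their leading genes.

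**Figure D1:**
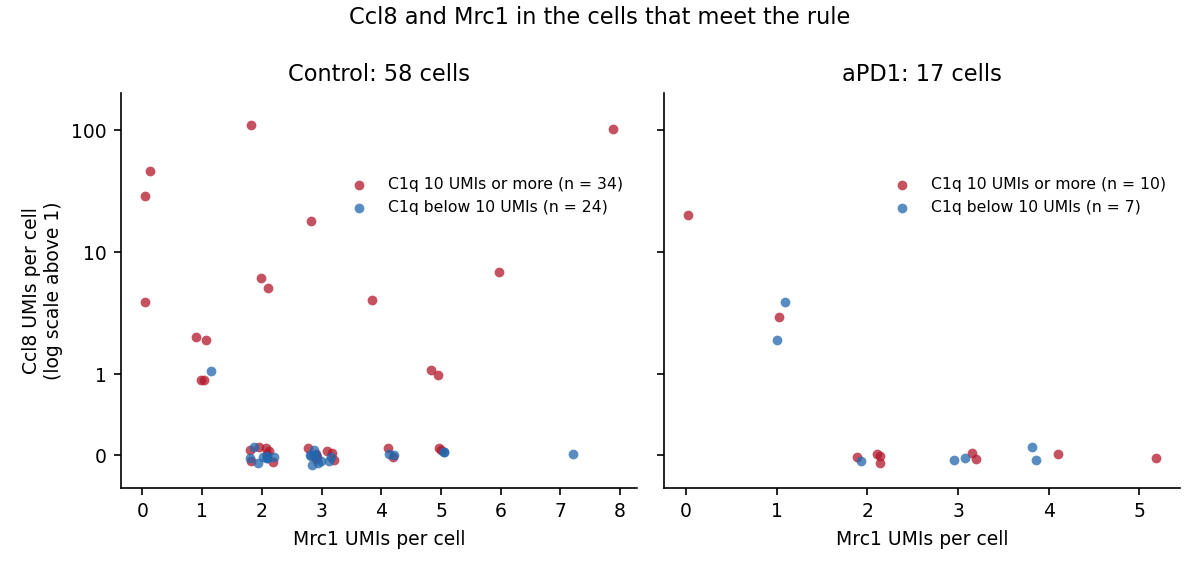
UMIs of Mrc1 (horizontal axis) and Ccl8 (vertical axis, log scale above 1) in each of 58 Control and 17 aPD1 members, with small random shifts so that points do not overlap. Red points have 10 or more C1q UMIs and blue points fewer. High Ccl8 counts lie in red points, and most cells of both colours lie at 0 Ccl8 UMIs.

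Ccl8 was concentrated in few cells and Mrc1 was not. Ccl8 gave 341 UMIs in 17 of 58 Control members, with 110, 103, 46, 29 and 18 in the 5 highest cells, which held 89.7% of the total. In aPD1 it gave 29 UMIs in 4 of 17 members, at 20, 4, 3 and 2 UMIs, so 1 cell held 69.0%. Mrc1 gave 166 UMIs in 55 Control members, with a median of 3 and at most 8 in a cell, and 42 UMIs in 16 aPD1 members, with a median of 2 and at most 5. Ccl8 was at 993 CPM in Control (891 to 1105) and 281 CPM in aPD1 members (188 to 404), and Mrc1 at 484 CPM (413 to 563) and 407 CPM (293 to 550). Background was read in T cells, which should lack both genes. These had at least 2 UMIs of Cd3d, Cd3e and Cd3g together and none of Csf1r, Lyz2 or Cd68. Of them, 1 of 281 Control and 0 of 1273 aPD1 cells had 2 or more Ccl8 and Mrc1 UMIs together, the latter allowing a share of up to 0.289%. Leaving out T cells with macrophage-gate UMIs can lower this background, so it may be understated. The T cells were shallower, with medians of 2853 and 2540 UMIs. Free RNA made up an estimated 1.58% of UMIs in Control and 2.35% in aPD1 cells, with Ccl8 at 93.2 and 18.4 CPM in it. This estimate used the C1q UMIs of the same T cells, so it may be low too.

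On either side of the required 2 UMIs the cells were few. The 18 Control cells with exactly 2 UMIs had a median C1q of 16.5 UMIs, and the 25 with 1 UMI had 7. Ccl7, the neighbouring monocyte attractant, was at 401 CPM in the former and 1290 CPM in the latter, where 1 cell held 69 of 159 UMIs. The phospholipid transfer protein gene Pltp was at 120 and 195 CPM. In aPD1 5 cells had exactly 2 UMIs and 25 had 1, with median C1q of 39 and 38. There Ccl7 was at 1361 and 716 CPM, the reverse order to Control, and Pltp at 140 and 130 CPM.

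Ccl8 stands at chromosome 11, positions 82115185 to 82116799 (GRCm38, plus strand), downstream of Ccl2, Ccl7, Ccl11 and Ccl12, and the stretch from the Ccl2 start to the Ccl8 end is 81.2 kb. Ccl12, which encodes another monocyte attractant, starts 13.3 kb upstream at 82101845. Mrc1 lies apart, on chromosome 2 at 14229392 to 14332057. The stretches of 250 bases upstream of the Ccl12 and Ccl8 start sites are shown because these neighbours differed in opposite directions between the libraries, as described further on. The sequences are from RefSeq (GRCm38.p6), plus strand, at chr11:82101595-82101844 and chr11:82114935-82115184, and the capitals mark the core promoter motif TATAAAA.
Ccl12: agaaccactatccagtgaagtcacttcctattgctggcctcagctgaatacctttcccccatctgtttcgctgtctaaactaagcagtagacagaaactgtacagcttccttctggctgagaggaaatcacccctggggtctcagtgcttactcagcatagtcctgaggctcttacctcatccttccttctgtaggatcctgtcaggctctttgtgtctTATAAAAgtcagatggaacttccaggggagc
Ccl8: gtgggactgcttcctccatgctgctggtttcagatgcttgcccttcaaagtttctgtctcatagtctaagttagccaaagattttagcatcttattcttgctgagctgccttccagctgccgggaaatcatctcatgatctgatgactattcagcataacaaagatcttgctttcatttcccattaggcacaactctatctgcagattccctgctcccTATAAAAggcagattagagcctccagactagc
TATAAAA begins 31 bases before the Ccl12 start and 32 before the Ccl8 start. On the sense strand it was found in 991 of 32851 such windows of all genes (3.02%), and on either strand in 4.98%. The match is a description of these letters, not a site.

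The share of cells meeting the rule was lower in the aPD1 library. Members made up 4.94% of Control cells (3.77 to 6.34, exact Clopper-Pearson) and 0.512% of aPD1 cells (0.298 to 0.818), a ratio of 0.104 (0.061 to 0.177). C1q-high members were 2.9% of Control (2.01 to 4.02) and 0.301% of aPD1 cells (0.144 to 0.553). C1q-low members were 2.04% (1.31 to 3.03) and 0.211% (0.0848 to 0.434), so the ratio was 0.104 for the first and 0.103 for the second. Comparison macrophages were 4.34% and 2.83%, a ratio of 0.652 (0.466 to 0.911). Other C1q-low cells of the macrophage gate were 12% and 10.3%, a ratio of 0.855 (0.711 to 1.03). Because every cell type counts towards the total, more cells of another type lower these percentages, so a share within macrophages was formed as well.

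**Figure D2:**
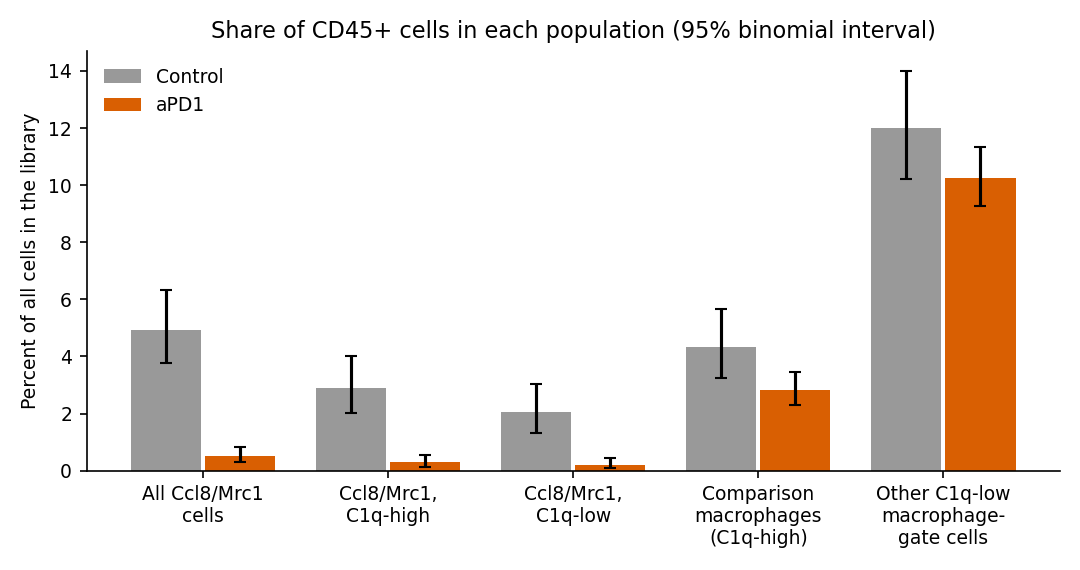
Percent of all cells in the Control (grey) and aPD1 (orange) library that fell into each population, with exact 95% binomial intervals. The members, C1q-high and C1q-low, each had a ratio near 0.10 of aPD1 to Control, whereas the comparison macrophages were at 4.34% and 2.83%.

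Among C1q-high macrophages alone, members and comparison cells together, 34 of 85 in Control (40.0%, 29.5 to 51.2) and 10 of 104 in aPD1 (9.62%, 4.71 to 17.0) met the Ccl8 and Mrc1 minimum. The median depth was 5232 UMIs in Control and 5921 in aPD1. At least 1 UMI of either gene was found in 46 of 85 (54.1%) and 27 of 104 (26.0%), and after each cell was thinned to 1000 UMIs in 23 (27.1%) and 7 (6.73%). Summed over these macrophages, Ccl8 was at 663 CPM in Control (595 to 737) and 42.7 CPM in aPD1 (28.4 to 61.7), a log2 ratio of -3.96 (-4.57 to -3.40). Mrc1 was at 202 CPM (165 to 244) and 54.9 CPM (38.5 to 76.0), a log2 ratio of -1.88 (-2.47 to -1.32). These sums do not use the Ccl8 and Mrc1 minimum, and Ccl8 rested on 18 Control and 7 aPD1 cells.

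The C1q-high members carried the Ccl8. Of 341 Control Ccl8 UMIs, 340 were in C1q-high members, as were 23 of 29 in aPD1. Genes that stood higher in C1q-high than C1q-low Control members were the tetraspanins Cd63 and Cd81, the macrophage membrane gene Ms4a7, the lipid receptor gene Trem2, the chemokines Ccl12, Cxcl9 and Cxcl10, and the fractalkine receptor gene Cx3cr1. Ms4a7 gave 207 UMIs in 23 of 34 C1q-high cells and 5 UMIs in 2 of 24 C1q-low cells. Ccl12 gave 127 UMIs in 19 cells and 5 UMIs in 4 cells. Cxcl9, an interferon-induced T-cell attractant, gave 158 UMIs against none, but 126 of them came from 1 cell. These divisions used C1q, so they describe the cells and test nothing.

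Within the Control members, Ccl8 went with Pf4, Ccl12 and Folr2. Pf4, the platelet factor 4 chemokine gene, was at 1433 CPM in the 17 members with Ccl8, 14 of which carried it, and at 158 CPM in the 41 with Mrc1 only, of which 10 did. The log2 ratio was 3.18 (2.66 to 3.74). Ccl12 was at 926 and 154 CPM (2.59, 2.03 to 3.18), Folr2, the folate receptor beta gene of resident macrophages, at 107 and 12.5 CPM (3.10, 1.18 to 5.59), and Ccl7 at 2281 and 1014 CPM (1.17, 0.91 to 1.43). Ccl8 and Ccl12 occurred together in 12 Control members and Ccl8 without Ccl12 in 5. Ccl8 and Cd209a occurred together in none. Members with Ccl8 had a median C1q of 59 UMIs and those with Mrc1 only of 3, so the divisions by Ccl8 and by C1q overlap. The aPD1 members with Ccl8 were too few (4) for such a comparison.

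The C1q-low members carried another set of genes. Cd209a gave 71 UMIs in 8 of 24 Control C1q-low members and 15 in 3 of 7 aPD1 C1q-low members. It gave 0 in all C1q-high members, where 3 UMIs would be 13 CPM in Control and 39.9 CPM in aPD1. Retnla, a secreted product of IL-4-activated macrophages, was at 2094 CPM in C1q-low and 51.9 CPM in C1q-high Control members, with 235 UMIs in 7 cells, and at 4562 CPM in 4 of 7 aPD1 C1q-low cells against no UMI in C1q-high ones. Lyz1, a lysozyme gene, was at 1150 against 4.33 CPM in Control and 1034 against 26.6 CPM in aPD1. Its 29 UMIs in aPD1 C1q-low members lay in 2 cells, 22 of them in 1. The sequences of Lyz1 and the gate gene Lyz2 are close, as are those of the lectin genes Mgl2 and Clec10a, and reads of such pairs could be split or dropped in counting. Mgl2 was at 508 against 56.3 CPM in Control, in 6 cells of each kind, and Clec10a at 383 against 64.9 CPM. The antigen-presentation gene H2-Ab1 was at 11515 CPM in C1q-low and 8481 CPM in C1q-high Control members, so the C1q-low members were not poor in MHC class II. Retnla and Cd209a were in the same cell in 3 of 58 Control and 2 of 17 aPD1 members.

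**Figure D3:**
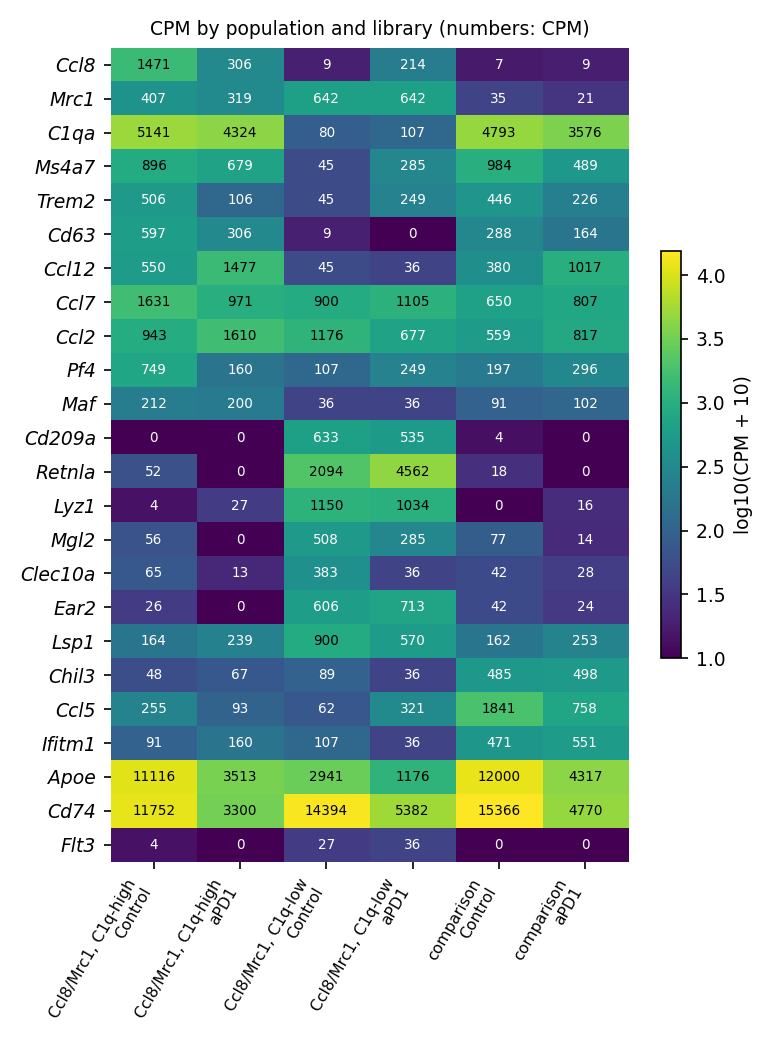
Levels in CPM of 24 genes (rows) in C1q-high members, C1q-low members and comparison macrophages of each library (columns), with colour on a log10(CPM + 10) scale and the CPM printed in each box. Cd209a, Retnla and Lyz1 are high in C1q-low members of both libraries, whereas Ms4a7, Ccl12 and C1qa are high in C1q-high members and comparison macrophages.

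Set beside other C1q-low cells of the same gate, the C1q-low members stood higher for Retnla, Mgl2 and Cd209a in both libraries. The aPD1 side held only 7 such members. There the highest cell for each gene held 73 of 128 Retnla, 5 of 8 Mgl2 and 12 of 15 Cd209a UMIs. Retnla stood at a log2 ratio of 3.31 (2.99 to 3.65) in Control and 7.34 (6.85 to 7.86) in aPD1, Mgl2 at 2.93 (2.31 to 3.57) and 4.57 (3.18 to 5.82), and Cd209a at 2.12 (1.64 to 2.59) and 3.92 (3.00 to 4.76). The monocyte gene Plac8 stood below 0, at -1.72 (-1.91 to -1.53) and -4.19 (-5.10 to -3.41), and so did Chil3, which encodes a chitinase-like protein of classical monocytes. The other C1q-low cells of aPD1 held many UMIs of the neutrophil gene S100a8, at 18915 CPM against 9.01 CPM in Control, so they were a different mixture in each library. The part of that mixture in these ratios was not tested.

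Against the comparison macrophages, the members as a whole stood past 2-fold higher in both libraries for 25 of 3189 measured genes (0.784%) and past 2-fold lower for 12 (0.376%). Genes were measured when they had at least 20 UMIs over both populations of each library. The highest by the smaller of the 2 ratios were Retnla, Lyz1 and Ccl17. Retnla was at 719 against 17.6 CPM in Control, a log2 ratio of 5.36 (4.11 to 6.99). In aPD1 it was at 1240 CPM against 0 UMIs, a log2 ratio of 7.91 with the 0 set to 3 UMIs and a lower limit of 7.59. Ccl17, a T-cell attractant, rested on 1 cell in each library, with 62 and 82 UMIs. All of the Ccl17 UMIs and nearly all of the Retnla and Lyz1 UMIs lay in C1q-low members. Most C1q-low Control members lacked them, since Retnla was in 7, Lyz1 in 8 and Ccl17 in 1 of 24.

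Next in that order were Sdc3, a heparan sulphate proteoglycan gene, at 1.20 (0.48 to 1.97) in Control and 0.97 (0.35 to 1.55) in aPD1, followed by Ccl6 and the metallothionein gene Mt1, at 0.88 (0.49 to 1.28) and 0.89 (0.42 to 1.34). Of the CC chemokines measured in both libraries 6 of 9 lay above 0 in both, and Ccl17 was the 1 past 2-fold higher in both. Ccl6, a myeloid chemokine, was at 1622 against 836 CPM in Control (log2 0.96, 0.73 to 1.18) and 2703 against 843 CPM in aPD1 (1.68, 1.46 to 1.90). In aPD1 1 cell held 108 of 279 Ccl6 UMIs. Ccl9 was at 1133 against 675 CPM (0.75, 0.49 to 1.01) and 843 against 464 CPM (0.86, 0.50 to 1.22). Ccl2, the main monocyte attractant, was at 1020 against 559 CPM (0.87, 0.59 to 1.15) and 1356 against 817 CPM (0.73, 0.45 to 1.01). Of 10 CC chemokines measured in Control 7 lay above 0, with a median of 0.81, and of 9 measured in aPD1 7 did, with a median of 0.73. Over all genes, 1824 of 3463 lay above 0 in Control (median 0.03) and 1774 of 3706 in aPD1 (-0.02). Ccl5 and Ccl3 went the other way in both libraries.

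Of the marker genes given with the label, Ccl7 was at 1392 against 650 CPM in Control (log2 1.10, 0.85 to 1.35) and 1008 against 807 CPM in aPD1 (0.32, 0.00 to 0.63). Pltp was at 149 against 87.8 CPM (0.76, 0.04 to 1.51) and 126 against 74.1 CPM (0.77, -0.25 to 1.69). Clec10a was at 169 against 42.2 CPM in Control (2.00, 1.09 to 3.04), mostly in C1q-low members, and had 2 UMIs in aPD1 members. Genes of tissue-resident and perivascular macrophages were split. Lyve1 and Timd4 had no UMI in any member and Cd163 had 1, while Folr2 had 14 UMIs in 9 Control and 3 in 3 aPD1 members. Of the 8 measured in Control 7 lay above 0 (median 0.96), and of the 6 in aPD1 4 did (0.36).

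The lower genes included Chil3, Ly6c2 and Ifitm1, which are abundant in inflammatory monocytes, and the chemokine gene Ccl5. The monocyte markers did not all go this way. In Control 2 of 6 measured lay above 0, with F13a1 past 2-fold higher, and in aPD1 1 of 6 lay above 0. Chil3 is also on the list of IL-4-type activation genes, of which Retnla and Ccl17 stood past 2-fold higher in both libraries. Chil3 was at 61.2 against 485 CPM in Control (log2 -2.99, -3.72 to -2.32) and 58.1 against 498 CPM in aPD1 (-3.10, -4.56 to -1.96). Ifitm1, an interferon-induced membrane protein gene, was at 96.1 against 471 CPM (-2.29, -2.89 to -1.73) and 126 against 551 CPM (-2.13, -3.06 to -1.34). Ccl5 was at 192 against 1841 CPM (-3.26, -3.65 to -2.89) and 155 against 758 CPM (-2.29, -3.11 to -1.57), though in 1 comparison cell of each library stood 350 of 524 and 193 of 440 of its UMIs. Arg1, the arginase 1 gene that the series title names, was at 953 against 1746 CPM in Control (-0.87, -1.08 to -0.67) and 388 against 648 CPM in aPD1 (-0.74, -1.25 to -0.27). Of 14 hypoxia and glycolysis genes 1 lay above 0 in Control and 4 in aPD1, with medians of -0.41 and -0.17. The rule itself leaves out cells with hypoxia UMIs, in members and comparison cells alike.

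The C1q-high members alone, which meet the same C1q minimum as the comparison macrophages, were compared next. Their median C1q was not matched, at 89 against 49 UMIs in Control and 92.5 against 48.5 in aPD1. Nor was their median depth, at 6546.5 against 5035 UMIs in Control and 7685 against 5762.5 in aPD1. Past 2-fold higher in both libraries stood 14 of 2832 genes (0.494%), and past 2-fold lower 9 (0.318%). Retnla, Lyz1 and Ccl17 were not among them, having few or no UMIs in C1q-high members. Of the lower genes, Chil3 stood at -3.35 (-4.38 to -2.46) in Control and -2.90 (-4.54 to -1.67) in aPD1, Ccl5 at -2.85 (-3.26 to -2.46) and -3.03 (-4.35 to -1.97), and Ifitm1 at -2.37 (-3.11 to -1.70) and -1.79 (-2.76 to -0.96). All 5 measured monocyte markers lay below 0 in both libraries. Higher in both were Sdc3 at 1.05 (0.25 to 1.88) and 1.24 (0.58 to 1.85), the lipoprotein lipase gene Lpl at 1.99 (0.87 to 3.25) and 1.0 (0.25 to 1.69), the neonatal Fc receptor gene Fcgrt at 1.05 (0.19 to 1.95) and 1.41 (0.27 to 2.43), and the transcription factor gene Maf at 1.21 (0.50 to 1.96) and 0.97 (0.05 to 1.81). Ccl2, Ccl6 and Ccl9 kept ratios between 0.69 and 1.67.

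Between the libraries, members of aPD1 stood past 2-fold above those of Control for 107 of 2688 genes (3.98%) and past 2-fold below for 217 (8.07%). With 17 cells on the aPD1 side, a gene at few UMIs passes 2-fold easily. MHC class II genes were lower throughout. All 8 measured members of that list lay below 0, 5 of them past 2-fold, with a median of -1.15, and in comparison macrophages all 9 did, with a median of -1.61. Cd74, the invariant chain of MHC class II, was at 12616 CPM in Control (12243 to 12997) and 3866 CPM in aPD1 members (3496 to 4264), a log2 ratio of -1.71 (-1.86 to -1.56). Apoe, the apolipoprotein E gene of lipid-handling macrophages, was at 8444 and 2877 CPM (-1.55, -1.73 to -1.38). Arg1 was at 953 and 388 CPM (-1.30, -1.81 to -0.82).

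These differences were as large in comparison macrophages. There Cd74 stood at -1.69 (-1.76 to -1.62), Apoe at -1.47 (-1.55 to -1.40) and Arg1 at -1.43 (-1.63 to -1.23). The difference between the 2 ratios was -0.02 (-0.18 to 0.14) for Cd74, -0.08 (-0.27 to 0.11) for Apoe and 0.13 (-0.38 to 0.64) for Arg1. Within the C1q-high members alone, Cd74 was at -1.83 (-2.03 to -1.64) and Apoe at -1.66 (-1.85 to -1.48), and within the C1q-low members at -1.42 (-1.67 to -1.18) and -1.32 (-1.89 to -0.80).

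Among the higher genes, Ccl12 and Cxcl10 also went with the comparison macrophages. Ccl12 was at 385 CPM in Control (322 to 456) and 1085 CPM in aPD1 members (893 to 1306), a log2 ratio of 1.5 (1.12 to 1.87), and at 1.42 (1.12 to 1.73) in comparison macrophages. Its 112 aPD1 UMIs lay in 9 cells, 56 of them in 1 cell, and its 132 Control UMIs in 23 cells with at most 15. Cxcl10, an interferon-induced chemokine gene, was at 256 and 1211 CPM (2.24, 1.84 to 2.65), and at 2.03 (1.71 to 2.38) in comparison macrophages. In 1 aPD1 member stood 47 of its 125 UMIs. Ccl8, by contrast with its neighbour Ccl12, was lower in aPD1 members, at -1.82 (-2.42 to -1.27), and in C1q-high members the pair stood at -2.27 (-2.94 to -1.66) for Ccl8 and 1.43 (1.05 to 1.81) for Ccl12. Ccl8 helped choose the members, so its value is a description, and without its highest cell in each library it rested on 231 and 9 UMIs.

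**Figure D4:**
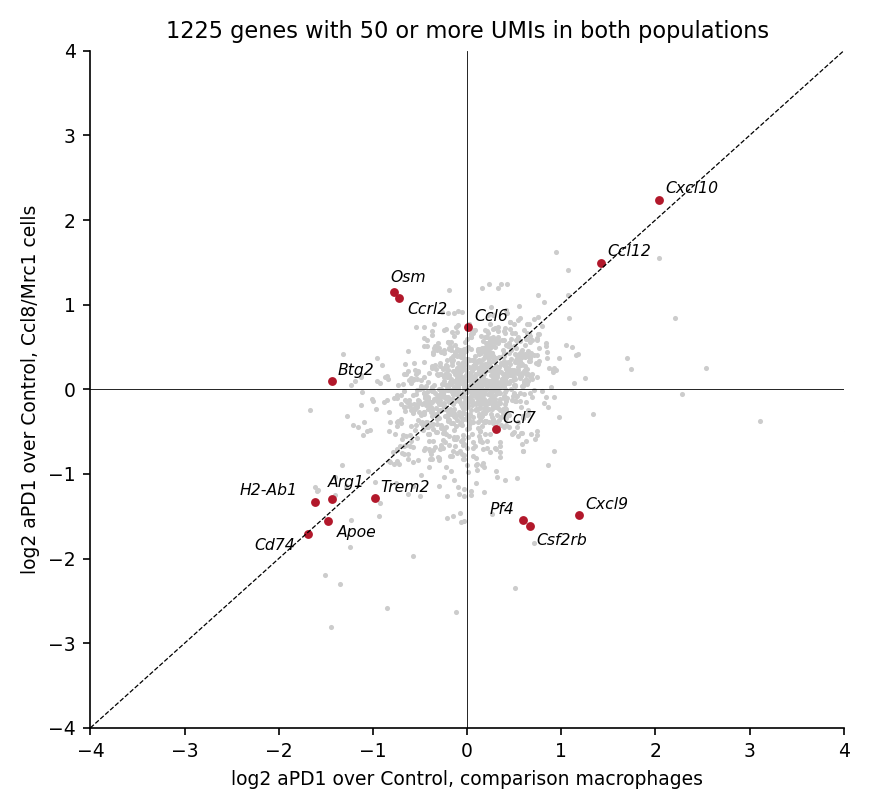
Log2 ratio of aPD1 over Control in comparison macrophages (horizontal axis) and in members (vertical axis) for 1225 genes with 50 or more UMIs in both populations, each point a gene and the dashed line equal ratios. Cxcl10, Ccl12, Cd74, Apoe and Arg1 lie near the line, and Pf4, Csf2rb and Cxcl9 lie below 0 in members and above 0 in comparison macrophages. The number of genes outside the axes is 1.

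In members every other list had a smaller median difference between the libraries than the MHC class II genes, with monocyte markers next. In comparison macrophages the 2 measured neutrophil markers, S100a8 and S100a9, had a larger one, with a median of 3.29. Over all measured genes, 1334 of 2688 lay above 0 in members (median -0.003) and 2289 of 4256 in comparison macrophages (0.05). Interferon response genes lay above 0 for 14 of 27 in members (median 0.03), with 3 past 2-fold higher, among them Cxcl10 and Iigp1, and 8 past 2-fold lower, among them Ifit3 and Ifi205. In comparison macrophages 23 of 30 lay above 0 (median 0.51). Oxidative phosphorylation genes lay above 0 for 15 of 18 in members (median 0.21) and 17 of 18 in comparison macrophages (0.25). Immediate early and dissociation genes, which rise when tissue is taken apart, lay above 0 for 3 of 16 (median -0.60) and 2 of 17 (-0.76). Of the 6 measured monocyte markers 0 lay above 0 in members (median -1.0), with Ly6c2 at 728 and 320 CPM. Comparison macrophages had 3 of 7 above 0 (median -0.24). Ly6c2 fell there too, from 1785 CPM in Control to 595 CPM in aPD1 (log2 -1.59, -1.79 to -1.39). In C1q-low members Ly6c2 was at 1123 CPM in Control and 107 CPM in aPD1, and in C1q-high ones at 537 and 399 CPM. The value of 107 CPM rests on few UMIs, since the 7 aPD1 C1q-low members held 28059 UMIs in all. IL-4-type activation genes lay above 0 for 2 of 10 in members (median -0.39), Retnla and Ccl17, and Mgl2 was at 204 and 77.5 CPM. For comparison macrophages 1 of 8 lay above 0 (median -1.07).

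**Figure D5:**
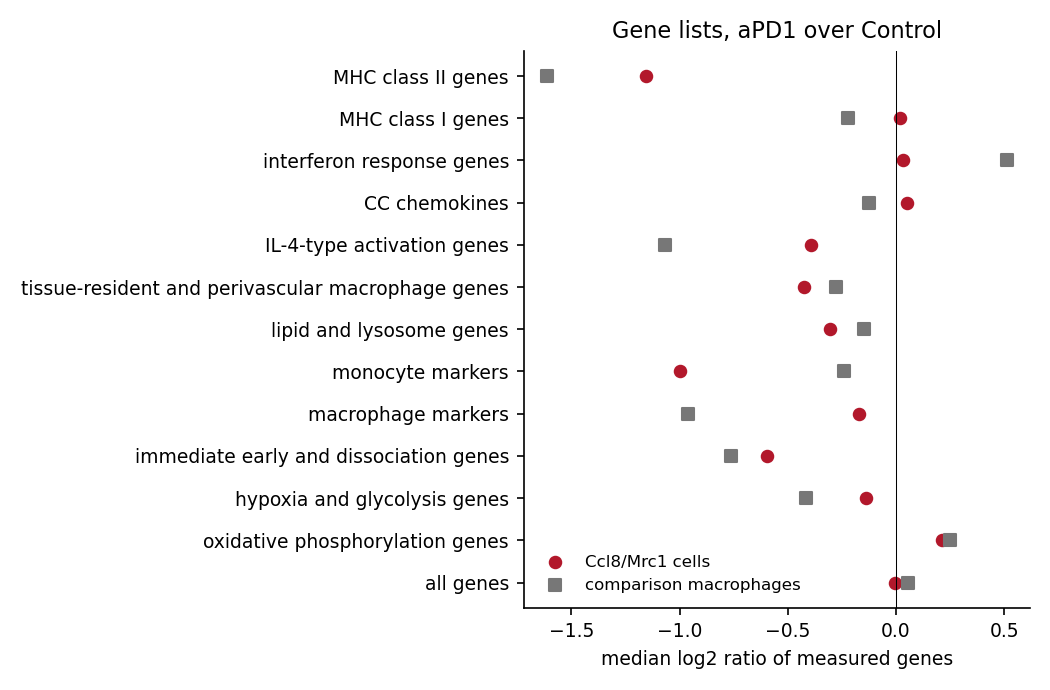
Median log2 ratio of aPD1 over Control for 12 gene lists and all measured genes, in members (red circles) and comparison macrophages (grey squares). MHC class II genes have the lowest median in comparison macrophages and the lowest in members, at -1.61 and -1.15.

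Where members and comparison macrophages were set against each other, members stood past 2-fold above for 141 of 2664 genes (5.29%) and past 2-fold below for 261 (9.8%). Pf4 was at 539 CPM in Control and 184 CPM in aPD1 members (log2 -1.55, -2.31 to -0.87), and at 197 and 296 CPM in comparison macrophages (0.59, 0.15 to 1.05). The Control UMIs lay in 24 members with at most 30 in a cell, and in C1q-high members the level was 749 CPM in Control and 160 CPM in aPD1. Its log2 ratio in C1q-high members was -2.23 (-3.21 to -1.39). Btg2, an antiproliferative immediate early gene, was at 588 and 630 CPM in members (0.10, -0.33 to 0.51) and 952 and 352 CPM in comparison macrophages (-1.44, -1.71 to -1.17). Socs1, an inhibitor of cytokine signalling, was at 125 and 96.9 CPM in members, and at 3 UMIs in Control and 53 UMIs in aPD1 comparison macrophages. S100a8 also ranked among the largest differences, but 41 of its 42 UMIs in Control members came from 1 cell.

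Monocyte markers summed to 3787 CPM in Control and 1850 CPM in aPD1 members, in 57 of 58 and 17 of 17 cells. Comparison macrophages were higher, at 5773 and 4683 CPM. The T-cell background was at 2848 CPM in Control and 5276 CPM in aPD1, in 254 of 281 and 1218 of 1273 cells. This list is therefore not particular to monocytes here. NK-cell markers summed to 69.9 CPM in Control and 155 CPM in aPD1 members, in 20 of 58 and 9 of 17 cells and with Ncr1, Klra8, Prf1 and Eomes at 0 in both, against 6646 and 8274 CPM in the T-cell background. Neutrophil markers summed to 271 and 184 CPM, with Cxcr2, Mmp8 and Ly6g at 0 in both. Of 9 tumour and stromal markers 8 had no UMI in members of either library. No doublet caller was run, and the part of doublets or of other cell types in these values was not tested.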

How the data were processed

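Per the labels' protocols, viable CD45+ cells were sorted and libraries made with the 10x Genomics 3' kit. Cell Ranger 2.1 and mm10 are named in the submitters' processing notes. The values deposited by the authors are UMI counts for 27998 genes, not normalised and with no cell calls. Members and comparison macrophages were defined by the thresholds in the report. UMIs were summed per population and library and divided by the population total (CPM). Log2 ratios carry conditional binomial intervals, CPM exact Poisson intervals, shares Clopper-Pearson intervals, ratios of shares a log-normal approximation and differences of ratios a Poisson delta-method interval. A count under 3 UMIs was set to 3 in a ratio, and against 0 UMIs only the lower limit of the interval is a bound. With 1 library per group no test was made. Members and gene lists were chosen with earlier results of these data known, and the division at 10 C1q UMIs was an alternative that was moved into the report after its values were seen.

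Genes were named by a rule of size. Against comparison macrophages it took the 15 highest and 12 lowest by the smaller of the libraries' ratios, where the higher population held 30 UMIs and 100 CPM or more. Between libraries it took 15 each way with at least 50 UMIs and 100 CPM, and for the difference between populations 6 each way. Fixed genes and list members were added. Genes of the gates, ribosomal, mitochondrial and unnamed genes were not ranked. Genes ranked within the C1q-high comparison or by the divisions among members, and Fcgrt, Maf and Adgre1 there, were chosen after their values were seen. Free RNA was estimated from barcodes of 10 to 50 UMIs and from the C1q UMIs of T cells without Csf1r, Lyz2 or Cd68 UMIs. Of the listed genes 4 were not analysed here. Lyz1 and Lyz2, and Mgl2 and Clec10a, are similar pairs whose counts are uncertain. Ratios and intervals were tested on simulated counts, in Python 3.11.15 with numpy 2.4.6, scipy 1.17.1 and pandas 2.3.3. Alternatives numbered 21, with 1 more (leaving out each gene's highest cell) added after the data were seen. Gene positions are from GENCODE on GRCm38.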

Additional observations from a re-analysis of the deposited data

Results flagged for a closer look

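5 genes stood in opposite directions in members and in comparison macrophages between the libraries, with both counting intervals off 0. With 1 library per group these differences were not tested. Cxcl9 had a log2 ratio of aPD1 over Control of -1.48 in members and 1.19 in comparison macrophages, a difference of -2.67, but 126 of its 158 Control member UMIs came from 1 cell. Csf2rb, a cytokine receptor subunit gene, had -1.62 and 0.67, a difference of -2.29, on 51 Control and 5 aPD1 UMIs in members. Pf4 had -1.55 and 0.59, a difference of -2.14, on 185 and 19 UMIs. Osm, the oncostatin M gene, had 1.15 and -0.77, a difference of 1.92, with 15 of 26 aPD1 UMIs in 1 member. Ccrl2, a chemokine-binding receptor gene, had 1.08 and -0.72, a difference of 1.80, with 10 of 21 aPD1 UMIs in 1 member.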

How the results depend on the processing

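Over the alternatives tried, the ratio of the member shares stayed between 0.0892 and 0.177. Over the alternatives that gave a value, 90 of 145 single-gene ratios and 20 of 67 list medians kept 1 sign, and 55 and 47 took both signs or reached 0. Among these, 15 genes' ratios and 1 list that were past 2-fold turned in sign, and they are named below. The counts depend on the minimum of UMIs, and a minimum of 3 inflates them because lower counts are set to 3. Each aPD1 value of the members rests on 17 cells, and leaving out lymphoid cells also shrinks the total that shares refer to. No paired analysis was possible because each group has 1 library. With a minimum of 4 Ccl8 and Mrc1 UMIs, the member share in Control was 1.79%, the member share in aPD1 was 0.211%, genes lower in both libraries numbered 5, genes lower in aPD1 members numbered 104 and genes with the members' ratio below numbered 118. Turned in direction were Ccl6 against comparison macrophages in aPD1 (-0.22), Osm in the difference of ratios (-0.28) and Cxcl9 between libraries (0.53). With at least 2 Ccl8 UMIs alone, the member share in Control was 1.02%, the member share in aPD1 was 0.12%, genes higher than comparison macrophages in both libraries numbered 76, genes lower in both libraries numbered 6, genes higher in aPD1 members numbered 50, genes lower in aPD1 members numbered 57, genes with the members' ratio above numbered 79 and genes with the members' ratio below numbered 93. The sign changed for Rgs1 against comparison macrophages in aPD1 (0.16), Cxcl10 between libraries (-1.50), Mgl2 against comparison macrophages in Control (-0.21), Trem2 between libraries (0.33) and the IL-4-type activation genes against comparison macrophages in Control (-0.21). With at least 2 Mrc1 UMIs alone, the direction turned for Cxcl9 in the difference of ratios (0.13), Cxcl9 against comparison macrophages in Control (-1.15) and Cxcl9 between libraries (1.32). With C1q-high members only, the member share in Control was 2.9% and genes higher than comparison macrophages in both libraries numbered 14. A change of sign was seen for Ccrl2 in the difference of ratios (-0.0918) and Mgl2 against comparison macrophages in Control (-0.46). With cells thinned to 1000 UMIs, genes higher than comparison macrophages in both libraries numbered 3, genes lower in both libraries numbered 6, genes higher in aPD1 members numbered 29, genes lower in aPD1 members numbered 50, genes with the members' ratio above numbered 34 and genes with the members' ratio below numbered 48. There the direction turned for Ccl3 against comparison macrophages in aPD1 (0.57), Cxcl9 against comparison macrophages in Control (-0.19) and the IL-4-type activation genes against comparison macrophages in Control (-0.41). Without cells holding UMIs of Ncr1, Klrb1c, Klre1, Cd79a, Cd79b, Cd8a or Cd8b1, the member share in Control was 8.29% and the member share in aPD1 was 1.11%. Turned in direction were Ccl17 between libraries (-2.62). Without cells holding 2 or more UMIs of Flt3, Zbtb46, Cd209a and Ccr7 together, genes higher than comparison macrophages in both libraries numbered 14. The sign changed for Mgl2 against comparison macrophages in Control (-0.86). Without the deepest 5% of cells, the direction turned for Cxcl9 in the difference of ratios (0.23), Cxcl9 against comparison macrophages in Control (-1.26) and Cxcl9 between libraries (1.85). With cells weighted alike, genes higher than comparison macrophages in both libraries numbered 44 and genes lower in both libraries numbered 24. A change of sign was seen for Cd274 between libraries (-0.46). At a minimum of 50 UMIs per gene, genes higher than comparison macrophages in both libraries numbered 2, genes lower in both libraries numbered 7, genes higher in aPD1 members numbered 17, genes lower in aPD1 members numbered 57, genes with the members' ratio above numbered 30 and genes with the members' ratio below numbered 63. At a minimum of 3 UMIs, genes higher than comparison macrophages in both libraries numbered 148, genes higher in aPD1 members numbered 2396, genes with the members' ratio above numbered 2678 and genes with the members' ratio below numbered 475. Without the hypoxia gate, the direction turned for Rsad2 between libraries (1.03) and Ccl24 against comparison macrophages in Control (-0.69). With gates set after thinning, the member share in Control was 0.852% and the member share in aPD1 was 0.151%. Without each gene's highest cell, genes higher than comparison macrophages in both libraries numbered 8, genes lower in both libraries numbered 21, genes higher in aPD1 members numbered 31, genes lower in aPD1 members numbered 326, genes with the members' ratio above numbered 38 and genes with the members' ratio below numbered 422. There the direction turned for Cxcl9 against comparison macrophages in Control (-0.40). The causes of these shifts were not tested.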
